A study of Mus musculus with 36 samples.

Results

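The mitochondrial ribosomal protein genes described here are the 78 protein-coding genes of the count table whose symbol is Mrpl or Mrps followed by a number and optional letters, out of 55335 genes in the table. All 78 passed the filter on low counts, which kept 17394 genes for testing. Of the 78, 51 encode proteins of the large subunit of the mitochondrial ribosome, 30 of them with a counterpart in bacterial ribosomes and 21 found in mitochondrial ribosomes only. Another 26 encode proteins of the small subunit, 16 with a bacterial counterpart and 10 mitochondrial only. Mrps30 and Mrps18a carry small subunit names but their proteins sit in the large subunit, and they are counted there. The last member, Mrps36, keeps its ribosomal name although its protein is now known as a component of the alpha-ketoglutarate dehydrogenase complex.

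Mouse embryonic stem cells, which can give rise to all tissues of the body, had been treated with BPK25, with IAA or with DMSO and were taken at days 0, 2, 4 and 6, with 3 libraries in each of the 12 groups. The labels give BPK25 by a code name alone. IAA is auxin, a plant hormone used to trigger the breakdown of proteins fused to an auxin-inducible degron, and DMSO is the usual solvent control. The labels' protocols give all groups a serum replacement medium with LIF, a cytokine that maintains the undifferentiated state, and cells typically kept with irradiated fibroblast feeders. In DMSO, however, every stem cell marker listed below was lower at days 4 and 6 than at day 0. The protocol thus cannot be taken to mean that the cells stayed undifferentiated. The study as a whole is about the chromatin remodelling complex NuRD and the folding of the genome where CTCF binds. Its labels state neither the genotype nor the degron-tagged protein, nor the dose, the event from which days are counted, or whether the groups derive from a single clone, and RNA levels cannot show whether a protein was degraded. The labels do not describe the replicates as separate cultures, so the p-values cover the spread among libraries, which could be technical.

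Mitochondrial ribosomes translate the few mRNAs of the mitochondrial genome, nearly all of which encode membrane subunits of the respiratory chain and the ATP synthase. Their RNAs come from the mitochondrial genome, but every one of their proteins is encoded in the nucleus, made on cytosolic ribosomes and imported. In embryonic stem cells, which rely strongly on glycolysis, mitochondrial activity is known to change when pluripotency is left.

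Library totals lay between 6621288 and 16497799 counts, and the members together took between 0.268% and 0.436% of the counts of a library. Replicates differed by more than sampling noise in all 36 pairs of libraries of 1 group (chi-square per degree of freedom 1.381 to 3.066). The 8 stem cell markers (Pou5f1, Sox2, Nanog, Zfp42, Esrrb, Dppa5a, Klf4 and Utf1) were detected in every group, with a summed level between 631 CPM in a library of IAA at day 6 and 3860 CPM in a library of IAA at day 0. Over all genes, BPK25 at day 4 lay 0.608 (root mean square log2 difference) from DMSO at day 4. It lay 0.506 from IAA at day 2, its nearest group. BPK25 lay at 0.262, 0.274 and 0.233 from DMSO at days 0, 2 and 6. IAA lay at 0.536, 0.715, 0.619 and 0.738 from DMSO at days 0, 2, 4 and 6. The nearest group of IAA at day 2 was DMSO at day 4 (0.493). Levels are given in CPM, counts scaled by library size, and ± after a level is the SD over 3 libraries. A change is a log2 fold change, and ± after it is an approximate standard error taken from the F statistic. A member was called changed at an adjusted p under 0.05 in edgeR's quasi-likelihood test, adjusted with the Benjamini-Hochberg method over all genes tested.

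The promoters of genes for mitochondrial ribosomal proteins are known to hold sites for ETS factors such as GABP, for NRF1 and for YY1, and RefSeq (GRCm38.p6) gave a window from 250 bases before to 50 bases after the start for 69 of the 78 members. The ETS core CCGGAAG, searched on both strands, was in 24 of these 69 windows (34.8%), against 12.2% of the windows of 16452 other genes. The YY1 core AAGATGG was in 13 windows (18.8%), against 6.38% of the others, and 33 members (47.8%) had one or the other, against 17.7%. The palindromic NRF1 consensus was in 3 windows (4.35%), against 1.37%. The remaining motifs searched were the E-box CACGTG in 5 windows (7.25%, against 8.08%), CCAAT in 27 (39.1%, against 38.8%) and TATAAA in 4 (5.8%, against 12.9%). These matches describe letters in a window, and an absent match tells nothing about a factor. The stretches of 120 bases before the start of 4 members are shown because these genes come back below, Mrpl52 and Mrpl41 among the largest decreases, Mrpl22 as a member lower under both treatments and Mrps18a as one higher in BPK25 than in IAA at day 4. Capitals mark matches on either strand, so that CTTCCGG is the reverse complement of the ETS core and ATTGG that of CCAAT.
Mrpl52, chr14:54426789-54426908, plus strand: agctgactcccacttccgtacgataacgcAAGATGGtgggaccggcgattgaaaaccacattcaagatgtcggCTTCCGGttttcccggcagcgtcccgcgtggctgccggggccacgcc
Mrpl22, chr11:58171544-58171663, plus strand: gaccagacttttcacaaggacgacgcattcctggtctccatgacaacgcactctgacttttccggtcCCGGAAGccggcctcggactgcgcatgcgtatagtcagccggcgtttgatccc
Mrpl41, chr2:24975099-24975218, minus strand: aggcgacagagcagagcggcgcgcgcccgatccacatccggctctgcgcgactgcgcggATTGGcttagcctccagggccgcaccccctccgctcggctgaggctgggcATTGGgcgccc
Mrps18a, chr17:46110884-46111003, plus strand: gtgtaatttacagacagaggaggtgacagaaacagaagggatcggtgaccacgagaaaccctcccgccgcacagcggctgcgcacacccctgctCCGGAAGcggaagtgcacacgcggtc
The Mrpl52 stretch thus held an ETS and a YY1 core, the Mrpl22 and Mrps18a stretches an ETS core each, and the Mrpl41 stretch CCAAT on the minus strand of the window at 2 places.

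The summed level of the members was lower at days 4 and 6 than at days 0 and 2 in every treatment, and lower in IAA than in DMSO at each day. From day 4 to day 6 it fell further in IAA and in DMSO but rose in BPK25. In BPK25 it was 4169 ± 58.9, 4172 ± 47.6, 2989 ± 24.3 and 3109 ± 60.5 CPM at days 0, 2, 4 and 6. In IAA the sum was 3748 ± 32.1, 3380 ± 24.8, 2931 ± 6.28 and 2740 ± 42.1 CPM, and in DMSO it was 4169 ± 32.7, 4262 ± 21.5, 3484 ± 47.2 and 3155 ± 54.8 CPM. The libraries of IAA lay below those of DMSO at all 4 days without overlap, whereas those of BPK25 overlapped with DMSO at days 0 and 6, lay just below it at day 2 (4127 to 4222 CPM in BPK25 and 4246 to 4287 CPM in DMSO) and lay further below it at day 4. As a plain share of all counts, BPK25 and DMSO overlapped at day 2 (0.406% to 0.423% and 0.421% to 0.436%). At day 6 BPK25 then lay just below DMSO (0.307% to 0.321% and 0.322% to 0.336%). Both of these small differences thus depend on the scaling. The sum is a description and was not tested. In RNA from bulk cultures, a smaller share of a cell type and less RNA per cell of that type cannot be told apart.

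**Figure D1:**
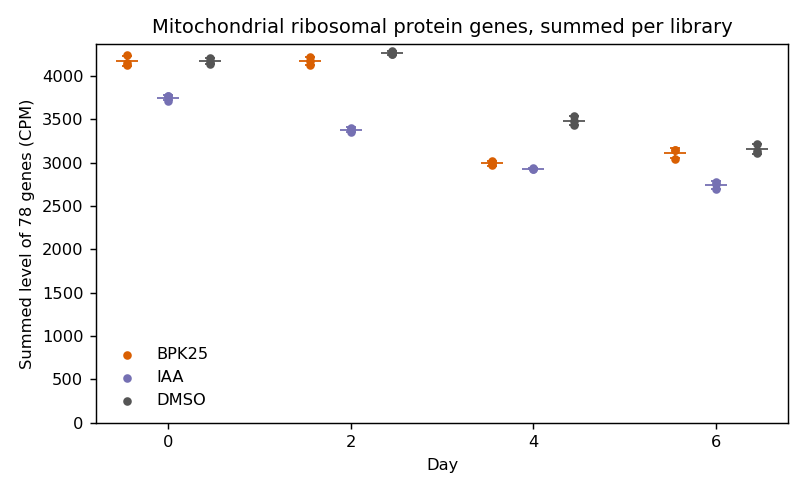
Summed level of the 78 genes (y axis, CPM) at days 0, 2, 4 and 6 (x axis) in BPK25, IAA and DMSO, from left to right within a day, with a point per library, a line at the mean of 3 and error bars of 1 SD. IAA lies below DMSO at each day, between 2740 and 3748 CPM on average, and BPK25 lies clearly below DMSO at day 4, at 2989 against 3484 CPM.

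Per kilobase of transcript (median length of a gene's protein-coding transcripts), the members had a median level of 31.6 CPM per kb over the 36 libraries, with a range of 8.0 to 146 CPM per kb. Mrps21 (small subunit), Mrpl42 and Mrpl22 (large subunit) had the highest levels at 146, 144 and 132 CPM per kb, but the order depends on the length used (Spearman's rho 0.625 between the orders from this length and from the union of exons). The group means of a member differed by a median of 1.72-fold between its highest and its lowest group, from 1.252-fold to 4.32-fold. The highest group was most often DMSO at day 2 (20 members), BPK25 at day 2 (18) or BPK25 at day 0 (12), and the lowest most often IAA at day 6 (37 members) or BPK25 at day 4 (12).

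**Figure D2:**
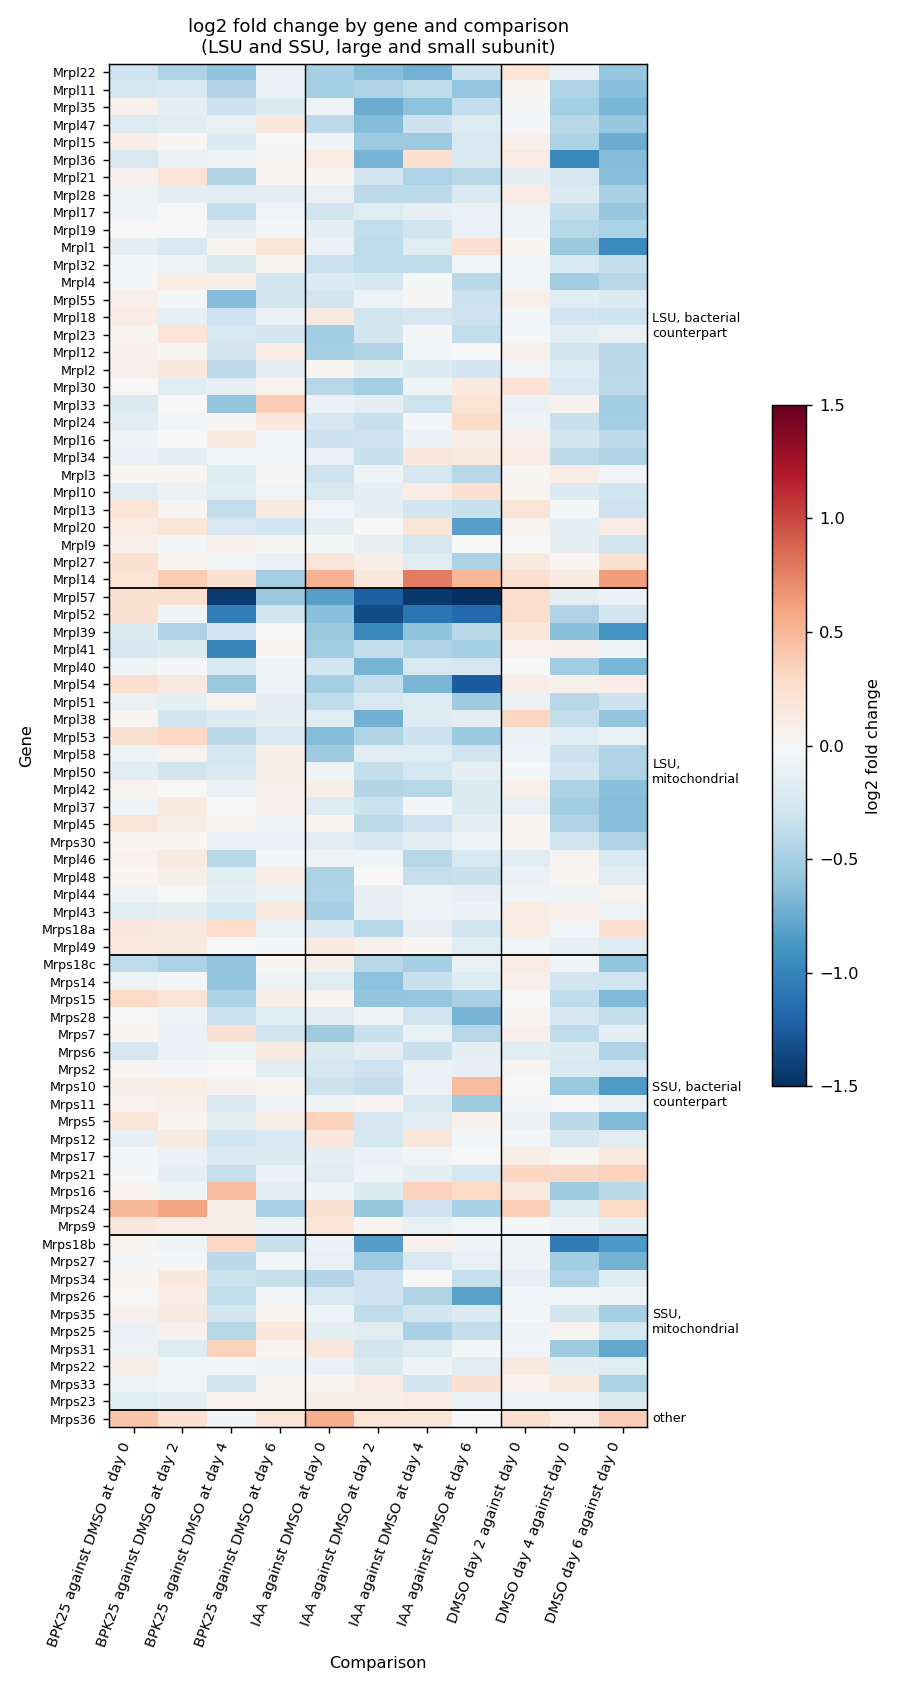
Log2 fold change of each of the 78 genes (rows, grouped by subunit and by presence of a bacterial counterpart) in the comparisons with DMSO of the same day and of DMSO days with day 0 (columns), on a colour scale from -1.5 to 1.5. Most cells of the IAA columns, of BPK25 at day 4 and of DMSO at days 4 and 6 are blue (lower), and the columns of BPK25 at days 0, 2 and 6 are paler, with medians of 0.02, -0.01 and -0.04.

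IAA against DMSO of the same day asked how the members differed with auxin. Over all genes, IAA at day 2 lay nearer to DMSO at day 4 (0.493) than to DMSO at day 2 (0.715). Whether its cells were further along the time course was not tested. At day 0, 32 of the 78 members fell and 7 rose, against 23.2% and 21.3% of all genes tested, and the median change was -0.15 for the members and -0.03 for all genes. At day 2, 55 fell and 0 rose, against 27.9% and 27.5% of all genes, with a median of -0.31 for the members and -0.01 for all genes. The count of members higher at day 2 was also 0 at an unadjusted p under 0.05 in edgeR and 0 in DESeq2. At day 4, 47 fell and 3 rose (25.9% and 25.9% of all genes), and at day 6, 42 fell and 7 rose (30% and 30.6% of all genes, 60.6% in either direction), with member medians of -0.20 and -0.21. The call held with any 1 library left out for 26, 46, 30 and 33 of the members that fell at days 0, 2, 4 and 6. Of the 7 that rose at day 0, 2 held, Mrps5 and Mrps9 of the small subunit, and without replicate 2 of IAA at day 0 the count was 3.

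By subunit, the 21 mitochondrial-only proteins of the large subunit had 13, 16, 16 and 16 members lower in IAA at days 0, 2, 4 and 6. The 30 large subunit proteins with a bacterial counterpart had 13, 22, 17 and 16 lower. Among the 16 small subunit proteins with a bacterial counterpart 4, 9, 8 and 6 were lower, and among the 10 mitochondrial-only ones 2, 8, 6 and 4. At day 0 the medians of these classes, in the same order, were -0.38, -0.14, -0.10 and -0.09, and at day 2 they were -0.36, -0.31, -0.25 and -0.29. The classes were not tested against each other.

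**Figure D3:**
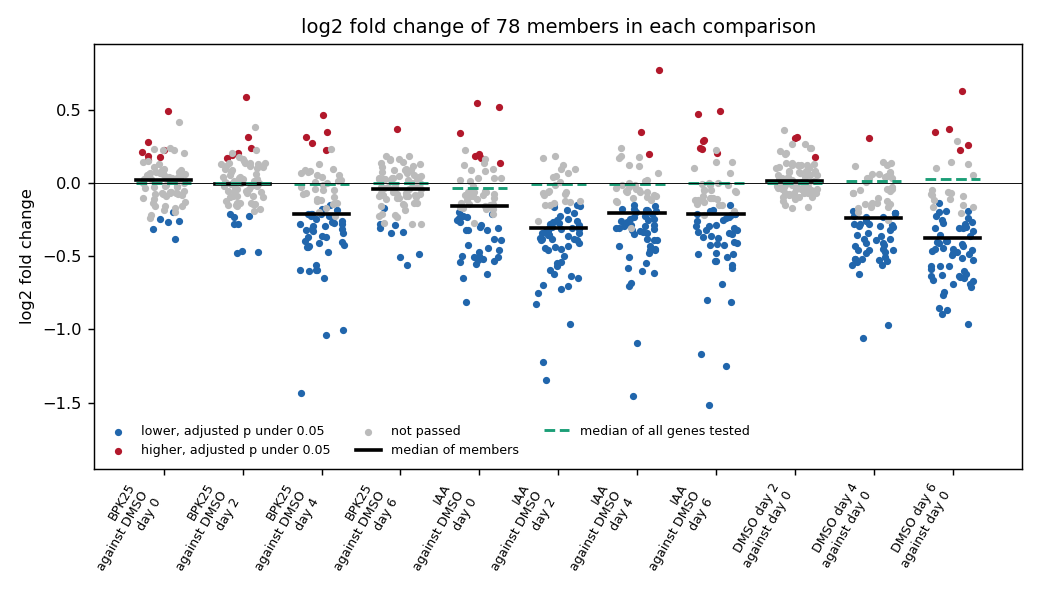
Log2 fold change (y axis) of the 78 genes in each comparison (x axis), 1 point per gene, blue for called lower, red for called higher and grey for not passed, with a black bar at the median of the 78 genes and a dashed green line at the median of all genes tested. The medians of the 78 genes lie at -0.15, -0.31, -0.20 and -0.21 in IAA at days 0, 2, 4 and 6, at -0.21 in BPK25 at day 4 and at -0.38 in DMSO at day 6.

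Mrpl57, a small protein of the large subunit without a bacterial counterpart (GRCm38 chr14:57826234-57829296, plus strand), had the largest decrease of the members in IAA at days 0, 4 and 6. In IAA it had 20.2, 18.8 and 22.0 CPM at day 0, 17.2, 18.9 and 18.4 at day 2, 13.4, 10.4 and 11.5 at day 4, and 12.7, 10.5 and 11.5 at day 6. In DMSO it had 35.2, 37.9 and 32.9 CPM at day 0, 43.2, 41.8 and 42.9 at day 2, 32.0, 32.7 and 31.7 at day 4, and 39.7, 27.5 and 31.0 at day 6. Every IAA library lay below every DMSO library of its day. The log2 fold changes were -0.81 ± 0.11, -1.22 ± 0.098, -1.45 ± 0.11 and -1.52 ± 0.11 (edgeR, adjusted p = 9.5e-09, 3.22e-15, 1.98e-16 and 3.97e-17).

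Mrpl52, another mitochondrial-only protein of the large subunit (chr14:54426909-54429756, plus strand), fell furthest at day 2. In IAA it had 15.2, 14 and 16 CPM at day 0, 10.8, 10.7 and 11.3 at day 2, 8.44, 7.87 and 7.42 at day 4, and 8.56, 8.66 and 8.26 at day 6. In DMSO it had 19.9, 25.6 and 23.7 CPM at day 0, 27.8, 25.2 and 29.8 at day 2, 18.0, 15.1 and 17.6 at day 4, and 20, 17.3 and 19.5 at day 6. The groups did not overlap at any day. Its changes were -0.62 ± 0.11, -1.34 ± 0.10, -1.09 ± 0.11 and -1.17 ± 0.11 (adjusted p = 3.37e-06, 6.58e-16, 2.33e-11 and 8.39e-13).

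Mrpl39, a mitochondrial-only protein of the large subunit related to a tRNA synthetase domain (chr16:84717576-84735742, minus strand), was among the more abundant members. It had 105, 96.8 and 101 CPM in IAA at day 0, against 140, 147 and 157 in DMSO, and 85.9, 89.4 and 82.6 CPM in IAA at day 2, against 166, 165 and 171 in DMSO. At day 4 it had 64.9, 63.5 and 61.5 CPM in IAA, against 99.8, 91.6 and 96.7 in DMSO, and at day 6 62.4, 56.9 and 58.8 CPM in IAA, against 78.2, 79.5 and 81.4 in DMSO. All IAA libraries were the lower ones at each day. The change was -0.55, -0.96, -0.60 and -0.42 (adjusted p = 1.3e-12, 7.49e-22, 1.91e-13 and 8.7e-09).

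Mrpl41, a further mitochondrial-only protein of the large subunit (chr2:24974117-24975098, minus strand), had 48.9, 49.9 and 45.5 CPM in IAA at day 0 and 47.5, 43.8 and 48.2 at day 6, against 65.6, 71.8 and 70.5 CPM in DMSO at day 0 and 69.5, 61.9 and 65.7 at day 6. The groups did not overlap at either day, nor at days 2 and 4. Its changes were -0.52, -0.36, -0.46 and -0.50 (adjusted p = 8.89e-09, 3.4e-06, 1.07e-08 and 1.8e-09). Mrpl54, also mitochondrial only, had 8.65, 8.66 and 9.95 CPM in IAA at day 6, against 21.2, 21.4 and 22.2 in DMSO, a change of -1.25 ± 0.10 (adjusted p = 1.34e-14), and its changes at days 0, 2 and 4 were -0.51, -0.35 and -0.68. Mrpl11, the counterpart of the bacterial L11 protein at the site where translation factors bind, changed by -0.50, -0.46, -0.38 and -0.58 at days 0, 2, 4 and 6.

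These 6 members were called lower in IAA at all 4 days with any 1 library left out. Another 7 were called lower at all 4 days and lost a call without a library, namely Mrps26 at day 0 (adjusted p = 0.0515 without replicate 1 of DMSO), Mrpl58 at day 2 (0.122 without replicate 3 of IAA) and day 4 (0.115 without replicate 1 of DMSO), and Mrpl53 at day 4 (0.0707 without replicate 3 of DMSO). Mrpl40 lost its call at day 4 (0.0688 without replicate 3 of IAA) and day 6 (0.0518 without replicate 1 of DMSO). Mrpl51 at day 4, without replicate 3 of DMSO or replicate 2 or 3 of IAA, reached an adjusted p of up to 0.212. Mrpl47 at day 6, without replicate 1 of DMSO or replicate 1 or 3 of IAA, reached 0.14, and Mrpl22 at day 6, without replicate 1 of DMSO or replicate 2 of IAA, 0.116. Of the 13 members lower at all 4 days, all but Mrps26 belong to the large subunit, and Mrpl11, Mrpl22 and Mrpl47 are the ones with a bacterial counterpart. The 13 are 16.7% of the members, against 5.68% of all genes tested. A further 20 members (25.6%, against 9.85% of all genes) were lower at 3 days, 25 (32.1%, against 15.2%) at 2 days and 14 (17.9%, against 24.4%) at 1 day. The remaining 6 (7.69%, against 44.9%) were lower at none. In the annotation 88% of the exon bases of Mrpl53 also belong to Gm42688 on the same strand, so its counts may be shared.

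Mrpl58 encodes a peptidyl-tRNA hydrolase that releases stalled chains and is built into the large subunit. Its changes in IAA were -0.54, -0.16, -0.19 and -0.29 at days 0, 2, 4 and 6. Mrpl12, whose protein forms the stalk that recruits translation factors, had 48.7, 46.3 and 47.0 CPM in IAA at day 0, against 68.6, 70.8 and 61.3 in DMSO, without overlap. It changed by -0.50 and -0.45 at days 0 and 2 (adjusted p = 2.77e-09 and 4.75e-09), and did not pass at days 4 and 6 (-0.04 and -0.00). Mrpl22, whose bacterial counterpart lines the exit tunnel, had 72.1, 73.1 and 68.4 CPM in IAA at day 4, against 107, 115 and 129 in DMSO, a change of -0.71 ± 0.10 (adjusted p = 7.74e-08). Mrpl23, a neighbour of L22 at the tunnel exit, changed by -0.52, -0.28 and -0.37 at days 0, 2 and 6 (adjusted p = 0.000188, 0.0254 and 0.00197), of which the call at day 2 was lost without replicate 3 of IAA or of DMSO (up to 0.119). Its pseudogene Mrpl23-ps1 carried 2144 counts over all libraries.

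Some members changed in IAA at 1 day and not, or in the other direction, at another. Mrpl20, which binds the large ribosomal RNA, had 20.8, 23.9 and 27.6 CPM in IAA at day 6, against 42.1, 42.0 and 41.6 in DMSO, a change of -0.81 ± 0.074 (adjusted p = 1.8e-13). At day 4 its change was 0.20, a call lost without replicate 2 of IAA or of DMSO (adjusted p up to 0.0708). Mrps26, a small subunit protein, had 39.6, 38.1 and 39.1 CPM in IAA at day 6, against 67.0, 70.6 and 66.6 in DMSO, a change of -0.80 (adjusted p = 3.93e-14), whereas it changed by -0.24 to -0.45 at the earlier days. Mrps10 had 50.5, 45.3 and 40.7 CPM in IAA at day 0, against 58.7, 54.0 and 59.0 in DMSO, and at day 6 46.7, 41.7 and 43.0 CPM in IAA, against 32.4, 32.7 and 29.6 in DMSO. The libraries thus did not overlap at either day, with IAA below DMSO at day 0 and above it at day 6. The changes of Mrps10 were -0.32 at day 0 (adjusted p = 0.000171) and 0.47 ± 0.070 at day 6 (7.65e-08). Mrpl24 changed by -0.25 and -0.34 at days 0 and 2 and by 0.29 at day 6 (2.73e-05), and 26.3% of its exon bases overlap Rrnad1 on the opposite strand.

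Mrps5, a small subunit protein near the entrance for mRNA, had 197, 198 and 194 CPM in IAA at day 0, against 151, 154 and 160 in DMSO, a change of 0.34 (adjusted p = 1.17e-07). At day 2 it had 124, 117 and 126 CPM in IAA, against 144, 151 and 142 in DMSO, a change of -0.25 (adjusted p = 3.24e-05). The IAA libraries were the higher ones at day 0 and the lower ones at day 2. Mrps15 had 111, 110 and 99.8 CPM in IAA at day 0, against 110, 106 and 101 in DMSO, and 68.6, 69.6 and 72.0 CPM in IAA at day 2, against 104, 104 and 109 in DMSO. It did not pass at day 0 (0.02), when its libraries overlapped, and fell by 0.59, 0.58 and 0.48 on the log2 scale at days 2, 4 and 6.

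Mrpl14 was the only member called higher in IAA at 3 of the 4 days. Its protein lies at the interface with the small subunit. It had 8.44, 5.74 and 7.19 CPM in IAA at day 4, against 3.94, 4.00 and 4.70 in DMSO, and 8.65, 7.24 and 8.74 CPM in IAA at day 6, against 5.86, 5.84 and 5.89 in DMSO. The IAA libraries were the higher ones at both days, and replicate 2 of IAA was the closest to DMSO. The changes were 0.77 ± 0.15 (adjusted p = 2.93e-05) and 0.49 ± 0.13 (0.00152), and the call at day 0 (0.52) was lost without replicate 3 of DMSO or replicate 1 or 2 of IAA (adjusted p up to 0.172). Mrpl14 was 1 of the members with few counts (1869 over all libraries), and 11.2% of its exon bases overlap Tmem63b on the opposite strand. Mrps36, the dehydrogenase component, had 12.9, 18.0 and 13.1 CPM in IAA at day 0, against 9.68, 10.2 and 10.4 in DMSO (0.55, adjusted p = 0.00161), a call lost without replicate 2 of IAA (0.0618). Its changes at days 2, 4 and 6 were 0.19, 0.18 and -0.01 and did not pass.

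Markers of feeders and of stem cells also differed between these groups. Of all genes tested, 21.3%, 27.5%, 25.9% and 30.6% were higher in IAA than in DMSO at days 0, 2, 4 and 6. The shares lower were 23.2%, 27.9%, 25.9% and 30%. Of the 10 fibroblast feeder markers (Col1a1, Col1a2, Col3a1, Fbn1, Thy1, Lum, Dcn, Postn, Prrx1 and Twist1), 1, 3, 7 and 6 were higher and 1, 5, 1 and 2 lower in IAA than in DMSO at days 0, 2, 4 and 6. Their summed level was 37.4 to 42.0 CPM in IAA at day 0, against 36.4 to 44.1 in DMSO, and 317 to 326 CPM in IAA at day 6, against 160 to 163 in DMSO. At day 2 the sum was 78.2 to 82.1 CPM in IAA, against 37.7 to 39.8 in DMSO, although more markers were lower than higher. The 3 collagens of the list alone summed to 199 to 209 CPM in IAA at day 6, against 57.9 to 63.4 in DMSO. The sum thus leans on few genes and does not give a share of feeder cells. Here and in the comparisons below, the list cannot tell feeders from other cells of the culture that express the same genes. Lum was at 0 in all libraries of IAA at day 0, and Dcn and Lum in those of IAA at day 2. Of the 8 stem cell markers, 7 were higher in IAA at day 0, and 8, 6 and 6 were lower at days 2, 4 and 6, with 1 higher at day 6. Their sum was 1514 to 1538 CPM in IAA at day 2, against 2656 to 2665 in DMSO. The part of either list in the changes of the members was not tested.

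**Figure D4:**
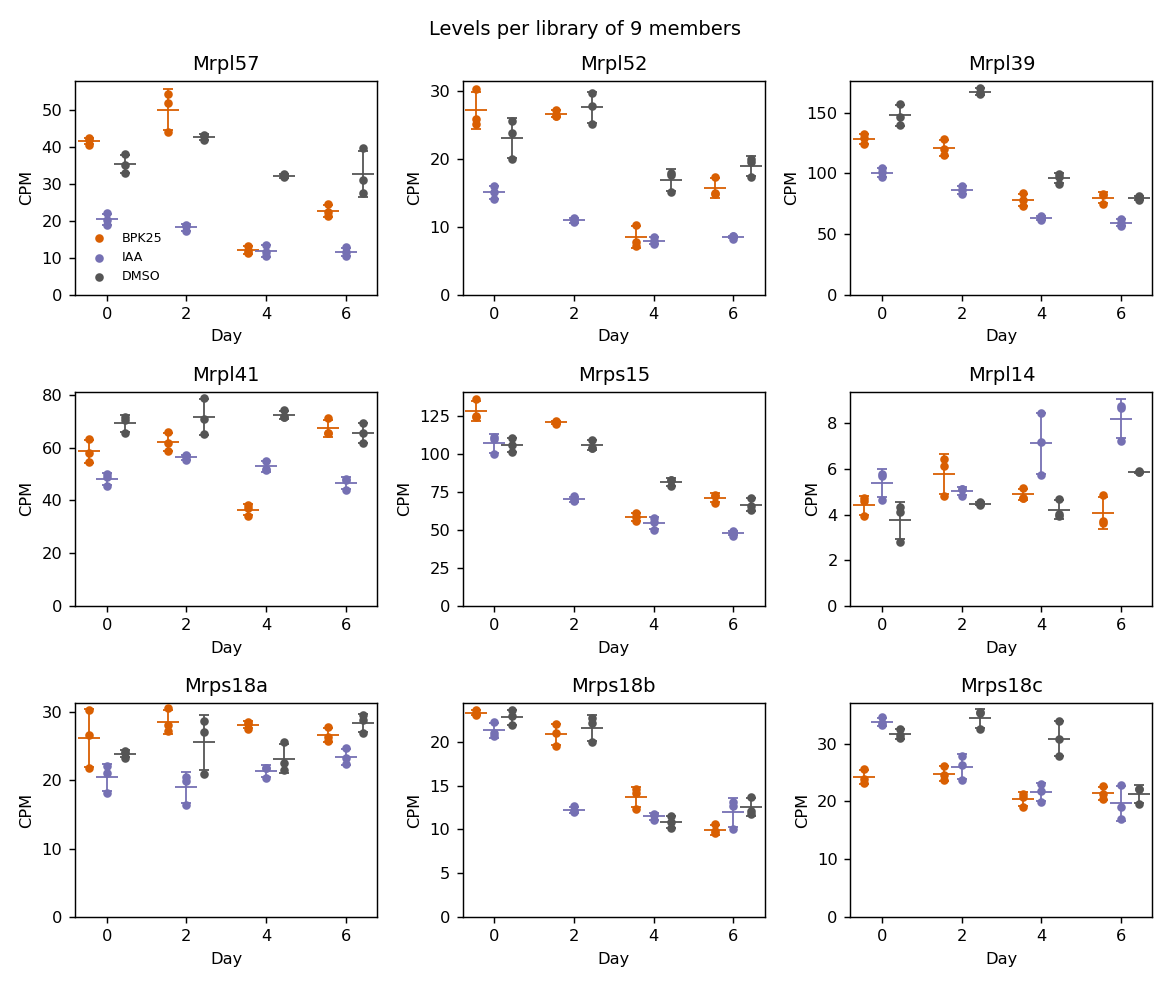
Level (y axis, CPM) of Mrpl57, Mrpl52, Mrpl39, Mrpl41, Mrps15, Mrpl14, Mrps18a, Mrps18b and Mrps18c in each library at days 0, 2, 4 and 6 (x axis), with BPK25, IAA and DMSO from left to right within a day. Mrpl57 and Mrpl52 lie lower in IAA than in DMSO at each day and lower in BPK25 at day 4, where Mrpl57 had 11.3 to 13.2 CPM in BPK25 against 31.7 to 32.7 CPM in DMSO.

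BPK25 against DMSO asked how the members changed with the compound. At day 4, 43 of the 78 members fell and 5 rose, against 26.8% and 26.2% of all genes tested, with a median of -0.21 for the members and -0.01 for all genes. At the other days few were called: 6 lower and 7 higher at day 0 (4.58% and 3.32% of all genes, 7.9% in either direction), 8 lower and 6 higher at day 2 (7.12% and 6.4%), and 9 lower and 1 higher at day 6 (3.08% and 4.01%, 7.09% in either direction). The member medians at these days were 0.02, -0.01 and -0.04. With any 1 library left out, 32 of the 43 calls lower at day 4 held, and 2 of the 5 higher.

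The small counts moved with single libraries. At day 0, leaving out replicate 1, 2 or 3 of BPK25 or of DMSO left 2 to 4 members higher, and leaving out replicate 1 or 2 of BPK25 or replicate 2 of DMSO left 3 lower. At day 2, 3 were higher without replicate 1 or 2 of BPK25 or replicate 1 of DMSO, and 2 without replicate 3 of DMSO. At day 4, 3 were higher without replicate 3 of BPK25. At day 6, 3 or 5 were lower without replicate 1 or 3 of DMSO, and 3 were higher without replicate 3 of BPK25.

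Mrpl57 had 11.3, 13.2 and 11.7 CPM in BPK25 at day 4, against 32.0, 32.7 and 31.7 in DMSO, the largest decrease of the members in BPK25 (-1.43 ± 0.11, adjusted p = 7.71e-16). At day 6 it had 24.5, 21.1 and 22.3 CPM in BPK25, against 39.7, 27.5 and 31.0 in DMSO (-0.56 ± 0.092, adjusted p = 6.27e-05). The groups were apart at both days. At days 0 and 2 it was not lower in BPK25, with 42.3, 40.6 and 41.9 CPM against 35.2, 37.9 and 32.9 in DMSO at day 0, and its call higher at day 2 (0.24) was lost without replicate 1 or 2 of BPK25 or any replicate of DMSO (adjusted p up to 0.262). Mrpl52 had 7.21, 10.3 and 7.77 CPM in BPK25 at day 4, against 18.0, 15.1 and 17.6 in DMSO, a change of -1.04 ± 0.12 (adjusted p = 1.77e-10). Mrpl41 had 34.0, 38.3 and 37.2 CPM in BPK25 at day 4, against 71.6, 74.4 and 71.7 in DMSO, a change of -1.0 ± 0.066 (adjusted p = 3.87e-18). Neither gene overlapped between the groups at day 4.

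The next largest decreases at day 4 were those of Mrpl55 (-0.65, adjusted p = 4.68e-05), Mrpl22 (-0.60, 2.48e-06), Mrps14 (-0.59), Mrps18c (-0.59, 4.89e-08) and Mrpl33 (-0.59, 3.15e-09). By class, 15 of 30 large subunit proteins with a bacterial counterpart, 13 of 21 mitochondrial-only ones, 9 of 16 small subunit proteins with a counterpart and 6 of 10 without were lower. Mrps15 had 136, 125 and 124 CPM in BPK25 at day 0, against 110, 106 and 101 in DMSO, and 61.2, 55.9 and 58.2 CPM in BPK25 at day 4, against 83.0, 78.5 and 82.7 in DMSO. The BPK25 libraries were the higher ones at day 0 and the lower ones at day 4. The changes of Mrps15 were 0.28 at day 0 (adjusted p = 0.000202) and -0.47 at day 4 (7.52e-10). Mrpl33, a small protein near the tRNA exit site, was lower at day 4 and was the single member higher at day 6, with 50.7, 46.8 and 43.5 CPM in BPK25, against 35.4, 40.8 and 33.3 in DMSO (0.37, adjusted p = 0.000799).

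The members called higher in BPK25 at day 4 were Mrps16, Mrps31, Mrps18b, Mrps18a and Mrps7. Mrps16, whose loss is known to cause a respiratory chain disorder in human infants, had 37.3, 43.1 and 39.3 CPM in BPK25, against 31.9, 26.2 and 27.8 in DMSO, without overlap (0.46 ± 0.085, adjusted p = 9.47e-06). Mrps31 had 54.2, 55.0 and 49.9 CPM in BPK25, against 37.8, 40.9 and 47.4 in DMSO, also without overlap (0.35, adjusted p = 8.28e-05).

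Mrpl11, Mrpl22, Mrpl39, Mrpl41 and Mrps18c, 6.41% of the members, were called lower in BPK25 at 3 of the 4 days, against 1.29% of all genes tested. Of these, Mrpl11 (-0.27, -0.23 and -0.44) and Mrps18c held their call at days 0, 2 and 4 with any library left out. Mrpl39 had 128, 115 and 120 CPM in BPK25 at day 2, against 166, 165 and 171 in DMSO, without overlap (-0.47 ± 0.048, adjusted p = 1.31e-09). Its call at day 0 (-0.20) was lost without replicate 2 of BPK25 or replicate 3 of DMSO, that of Mrpl41 at day 0 without replicate 1 of BPK25 or 2 of DMSO and at day 2 without replicate 3 of either, and that of Mrpl22 at day 0 without any replicate of BPK25 or replicate 2 or 3 of DMSO (adjusted p up to 0.25). Mrps24, a small subunit protein, had 23.7, 25.8 and 29.4 CPM in BPK25 at day 2, against 17.5, 12.9 and 20.7 in DMSO (0.59 ± 0.12, adjusted p = 0.00039). Of its exon bases, 15.4% are shared with Urgcp on the same strand. At day 6 Mrps34 was lower by a change of -0.34 (adjusted p = 0.000293). Its exon bases overlap Nme3 on the same strand (37.0%) and Mapk8ip3 on the opposite strand (63.4%).

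In BPK25 at day 4, 2 of the 10 feeder markers were above DMSO and 4 below it, against 26.2% and 26.8% of all genes tested. The markers summed to 72.2 to 76.6 CPM in BPK25, against 80.6 to 88.5 in DMSO. Dcn and Lum were at 0 in all 3 libraries of BPK25. At day 6, 4 of these markers were higher and 0 lower (4.01% and 3.08% of all genes). Their sum at day 6 was 192 to 203 CPM in BPK25, against 160 to 163 in DMSO. The 3 collagens of the list summed to 85.9 to 93.0 CPM in BPK25 at day 6, against 57.9 to 63.4 in DMSO. Among the 8 stem cell markers 5 were lower and 1 was higher at day 4, with a sum of 1051 to 1074 CPM in BPK25, against 1184 to 1285 in DMSO. The part of either list in the changes of the members was not tested.

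BPK25 and IAA were compared directly at day 4, the day at which both differed widely from DMSO. Between them 19 members were higher and 15 lower in BPK25, against 27.2% and 27.1% of all genes (54.3% in either direction), and the median was 0.02 for the members and 0.01 for all genes. The sums were close (2989 ± 24.3 and 2931 ± 6.28 CPM). Mrpl57 and Mrpl52 did not pass (0.02 and 0.06). Mrpl41 was lower in BPK25, with 34.0, 38.3 and 37.2 CPM, against 51.9, 55.1 and 51.7 in IAA (-0.54 ± 0.067, adjusted p = 1.65e-09). Mrpl55 (-0.67, 1.46e-05), Mrpl14 (-0.54, 0.00132), Mrps12, the counterpart of a decoding protein (-0.47, 0.000558), and Mrpl20 (-0.44, 5.73e-07) were lower too. Mrps31 had 54.2, 55.0 and 49.9 CPM in BPK25, against 34.1, 36.6 and 38.1 in IAA, and was the most increased (0.54 ± 0.073, 1.31e-08), followed by Mrps18a (0.40, 0.00019). In this comparison the change ran with transcript length over the 78 genes, which share libraries and are not replicates (Spearman's rho 0.444), with a median of -0.09 in the 26 shortest and 0.10 in the 26 longest. After a trend on length and GC content was removed, 21 members were higher and 15 lower. In the 8 comparisons of a treatment with DMSO, rho lay between -0.155 and 0.204.

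In DMSO alone, most members were lower at days 4 and 6 than at day 0. At day 2 against day 0, 3 members were higher and 0 lower (1.59% and 3.85% of all genes, 5.44% in either direction), at day 4, 1 higher and 45 lower (26% and 24.4%, 50.3% in either direction), and at day 6, 5 higher and 56 lower (33.2% and 29.5%, 62.7% in either direction). At day 2 the count lower was 1 at an unadjusted p under 0.05 in edgeR (Mrpl21) and 0 in DESeq2. The medians were 0.01, -0.24 and -0.38 for the members at days 2, 4 and 6, and -0.00, 0.02 and 0.03 for all genes. With any 1 library left out, 38 of the 45 and 51 of the 56 calls lower held. The members higher at day 2 were 5 without replicate 2 and 1 without replicate 3 of DMSO at day 2, those higher at day 4 were 2 without replicate 2 of DMSO at day 4, and those higher at day 6 were 3 without replicate 1 of DMSO at day 0 or at day 6. Across the 78 genes the change in DMSO ran with transcript length in the direction of larger decreases in longer transcripts, with a Spearman's rho of -0.255, -0.314 and -0.246 at days 2, 4 and 6. At day 6 the median was -0.25 in the 26 shortest and -0.46 in the 26 longest. After a trend on length and GC content was removed, 41 members were lower at day 4 and 51 at day 6.

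At day 6, 24 of 30 and 13 of 21 large subunit members with and without a bacterial counterpart, and 10 of 16 and 9 of 10 small subunit members, were lower than at day 0. Mrpl1, whose counterpart forms the mobile stalk by the exit of tRNA, had 63.6, 53.8 and 61.6 CPM in DMSO at day 0, 57.6, 61.9 and 62.0 at day 2, 40.5, 42.4 and 37.9 at day 4, and 29.3, 31.3 and 31.7 at day 6. Days 4 and 6 lay apart from day 0, and from each other, in every library. Its change at day 6 against day 0 was the largest of the members (-0.96 ± 0.074, adjusted p = 4.91e-16). Mrpl39 had 78.2, 79.5 and 81.4 CPM at day 6, against 140, 147 and 157 at day 0 (-0.89 ± 0.051, 1.15e-20), and Mrps10 had 32.4, 32.7 and 29.6 CPM at day 6, against 58.7, 54.0 and 59.0 at day 0 (-0.85 ± 0.069, 3.22e-15). Neither overlapped between the days.

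Mrpl57 and Mrpl41, which with Mrpl52 had the largest decreases in BPK25 at day 4, did not pass in DMSO at day 4 (-0.14 and 0.07) or day 6 (-0.08 and -0.07). Mrpl52 fell by 0.46 on the log2 scale at day 4 (adjusted p = 0.000181), and its call at day 6 (-0.27) was lost without replicate 2 of DMSO at day 0 (0.111). Mrpl54 did not pass at any day of DMSO, with changes of 0.10, 0.06 and 0.10. Mrps21 was higher than at day 0 at each later day, by 0.31, 0.31 and 0.35 (adjusted p = 0.00311, 0.000175 and 8.33e-06). Mrpl14 had 5.86, 5.84 and 5.89 CPM at day 6, against 4.09, 4.33 and 2.79 at day 0 (0.63 ± 0.17, adjusted p = 0.00138). Mrps30, a large subunit protein despite its name, changed by -0.30 at day 4 and -0.47 at day 6 (0.000259 and 3.2e-08), and in IAA at day 2 by -0.26 (0.000779). Over the same days in DMSO all 8 stem cell markers fell at days 4 and 6, with a sum of 744 to 754 CPM at day 6 and 2758 to 2882 CPM at day 0. Of the 10 feeder markers 3 were higher at day 4 and 9 at day 6, against 26% and 33.2% of all genes. At both days 0 were lower, against 24.4% and 29.5% of all genes. The feeder markers summed to 160 to 163 CPM at day 6 and 36.4 to 44.1 CPM at day 0. The part of these markers was not tested. The 3 collagens of the list summed to 57.9 to 63.4 CPM at day 6 and 8.18 to 10.6 CPM at day 0.

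The lists of lower members from comparisons without a common library can be set side by side. Of the 43 members lower in BPK25 at day 4, 31 (72.1%) were also lower in IAA at day 2, 56.4% of its 55, while 70.5% of all 78 were lower there. The 43 shared 30 (69.8%) with the 56 lower in DMSO at day 6 (53.6% of them), while 71.8% of all 78 were lower there. The 55 members lower in IAA at day 2 shared 46 (83.6%) with the 56 lower in DMSO at day 6 (82.1% of them), and 42 (76.4%) with the 45 lower in DMSO at day 4 (93.3% of them), while 57.7% of all 78 were lower there. These shares were not tested.

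The 3 paralogs of bacterial protein S18 differed in their course. Mrps18c (chr5:100798627-100804471, plus strand), which takes the bacterial position in the small subunit, had 25.6, 23.2 and 23.9 CPM in BPK25 at day 0, against 31.0, 31.5 and 32.6 in DMSO, and 19.0, 21.3 and 20.8 CPM in BPK25 at day 4, against 30.8, 27.8 and 33.9 in DMSO. The groups did not overlap at either day. Its changes in BPK25 were -0.38, -0.47, -0.59 and 0.03 at days 0, 2, 4 and 6 (adjusted p = 0.00243, 2.44e-05 and 4.89e-08 at the first 3), and in IAA 0.09, -0.41, -0.50 and -0.11, of which those at days 2 and 4 passed. In the annotation 23.2% of its exon bases are shared with Gm43511 on the same strand.

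Mrps18b (chr17:35910379-35916389, minus strand), at another site of the small subunit, had 22.9, 21.9 and 23.6 CPM in DMSO at day 0, 19.9, 22.8 and 22.1 at day 2, 10.9, 11.5 and 10.1 at day 4, and 12.1, 11.8 and 13.7 at day 6. Days 4 and 6 lay far below days 0 and 2, with changes against day 0 of -1.06 ± 0.095 and -0.87 ± 0.087 (adjusted p = 2.23e-13 and 3.86e-12). In IAA it had 12.1, 12.6 and 12 CPM at day 2, against 19.9, 22.8 and 22.1 in DMSO (-0.83 ± 0.091, 5.64e-11), and did not pass at days 0, 4 and 6. Its call higher in BPK25 than in DMSO at day 4 (0.31) was lost without replicate 3 of BPK25 (0.0505). Mrps18b was also called higher in BPK25 than in IAA at day 4. At day 6 it was called lower in BPK25 than in DMSO (-0.34), a day at which 3 of 9 such calls held with any 1 library left out. An antisense gene, Gm16279, overlaps 30.5% of its exon bases and held 113 counts, against 5503 for Mrps18b.

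Mrps18a (chr17:46110986-46128910, plus strand), the paralog in the large subunit, was not called lower in DMSO at any day, with 23.3, 24.3 and 24.1 CPM at day 0, 20.9, 28.6 and 27.0 at day 2, 25.6, 21.5 and 22.5 at day 4, and 29.5, 26.9 and 28.8 at day 6. Its call higher at day 6 (0.26) was lost without replicate 1 of either day (adjusted p up to 0.0893). It had 28.5, 28.3 and 27.6 CPM in BPK25 at day 4, against 21.8, 21.8 and 20.3 in IAA and 25.6, 21.5 and 22.5 in DMSO. BPK25 was thus the highest of the 3 treatments, and its call against DMSO (0.27) was lost without replicate 2 of DMSO (0.0966), while that against IAA held. In IAA its changes were -0.43 at day 2 (0.000298) and -0.29 at day 6 (0.00522).

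Whether the effect of a treatment differed between days was tested directly with the 3 interaction terms of each treatment. The BPK25 effect differed for 48 of the 78 members, against 47.1% of all genes tested. The IAA effect differed for 57 members, against 70.1% of all genes, a share of 73.1% of the members that is close to this background. Of the members, 11 were called higher at one day and lower at another in BPK25, among them Mrpl33 and Mrps15, against 7.37% of all genes tested. With any 1 library left out, however, few calls higher in BPK25 held: 1 of 7, 2 of 6, 2 of 5 and 1 of 1 at days 0, 2, 4 and 6. The count of 11 thus leans on calls that single libraries moved. In IAA 11 members were called in both directions, among them Mrps10, Mrpl24, Mrpl20 and Mrps5. Each 11 is 14.1% of the members, and in IAA 21.9% of all genes were called so.

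The other proteins of the mitochondrial ribosome and its accessory factors, from lists chosen by function, were set beside the members. Of 5 ribosomal proteins with other names (Dap3, Chchd1, Aurkaip1, Ptcd3 and Gadd45gip1), 2 were lower and 1 higher in BPK25 at day 4. In IAA 4 were lower and 0 higher at days 0 and 2, 3 lower and 0 higher at day 4, and at day 6 Aurkaip1 was lower (-0.39, adjusted p = 3.04e-06) and Dap3 higher (0.19, 0.00259). In DMSO 5 were lower at day 6. Ptcd3, a small subunit protein that binds RNA, averaged 87.7 ± 1.07 CPM in IAA at day 2 and 131 ± 3.66 CPM in DMSO (-0.57 ± 0.049, adjusted p = 3.31e-14). Chchd1 was the one higher in BPK25 at day 4 (0.34, 3.27e-06). Of all genes, 23.2% were lower and 21.3% higher in IAA at day 0. At days 4 and 6 of IAA, 25.9% and 30% were lower and 25.9% and 30.6% higher.

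Over all genes tested, 26.8% were lower and 26.2% higher in BPK25 at day 4, 27.9% lower and 27.5% higher in IAA at day 2, and 29.5% lower and 33.2% higher in DMSO at day 6. Of 25 genes for assembly of the ribosome and modification of its RNA, 8 were lower and 3 higher in BPK25 at day 4, 14 lower and 3 higher in IAA at day 2, and 16 lower and 2 higher in DMSO at day 6. Fastkd2, needed for the large ribosomal RNA, changed by -0.60 in IAA at day 2 (adjusted p = 7.77e-10), and Rmnd1 by -0.54 in BPK25 at day 4 (1.06e-06). Of 14 translation factors, 8 were lower and 0 higher in BPK25 at day 4, 10 lower and 3 higher in IAA at day 2, and 10 lower and 1 higher in DMSO at day 6. Mtrf1, a release factor, averaged 7.0 ± 0.73 CPM in BPK25 at day 4 and 15.4 ± 0.89 CPM in DMSO (-1.13 ± 0.10, 2.07e-13). Oxa1l, which inserts new chains into the inner membrane, averaged 24.9 ± 2.84 CPM in IAA at day 2 and 58.7 ± 2.31 CPM in DMSO (-1.23 ± 0.077, 4.99e-19).

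Among 15 genes for mitochondrial transcription and RNA stability, 5 were lower and 1 higher in BPK25 at day 4, 6 lower and 2 higher in IAA at day 2, and 7 lower and 1 higher in DMSO at day 6. In BPK25 at day 4 the share lower in this list, and in that of the 25 assembly genes, was near the share of all genes. Pnpt1, a ribonuclease of the mitochondrion, was lower in all 3 (-0.37, -0.62 and -0.81). Of 12 transcriptional regulators of mitochondrial genes, BPK25 at day 4 had 10 higher and 1 lower. IAA at day 2 had 6 higher and 4 lower, and DMSO at day 6 had 4 higher and 5 lower. IAA at day 0 had 7 higher and 1 lower (21.3% and 23.2% of all genes). That day is not given for the lists of assembly, translation factors and RNA stability, so it cannot be set beside them. Mycn, a MYC family factor of stem cells, averaged 114 ± 3.03 CPM in IAA at day 0 and 19.2 ± 0.70 CPM in DMSO (2.56 ± 0.067, adjusted p = 1.74e-33). Yy1, whose core was among the motifs searched, was higher in IAA at day 2 (0.97 ± 0.051, 8.5e-22), and any link to the members was not tested.

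Other components of translation and respiration were counted in BPK25 at day 4, in IAA at day 4, where 25.9% of all genes were lower and 25.9% higher, and in DMSO at day 6. Of the 82 genes for cytosolic ribosomal proteins, 49 were lower and 7 higher in BPK25 at day 4, 76 lower and 0 higher in IAA at day 4, and 72 lower and 0 higher in DMSO at day 6. Between the treatments at day 4 these genes differed, with 75 higher and 1 lower in BPK25 than in IAA (median 0.35), where the mitochondrial ribosomal proteins had 19 higher and 15 lower (median 0.02). Of 78 nuclear genes for the respiratory chain, 58 were lower and 1 higher in BPK25 at day 4, 64 lower and 2 higher in IAA at day 4, and 53 lower and 11 higher in DMSO at day 6. The 13 mRNAs made in the mitochondrion, which these ribosomes translate, had 11 higher and 0 lower in BPK25 at day 4, 12 higher and 0 lower in IAA at day 4, and 10 higher and 0 lower in DMSO at day 6. Among them mt-Cytb averaged 7059 ± 76.1 CPM in IAA at day 4 and 3532 ± 215 CPM in DMSO (1.00 ± 0.048, adjusted p = 2.36e-23). Their sum was 18351 ± 987 CPM in BPK25 and 23676 ± 291 CPM in IAA at day 4, against 13210 ± 482 CPM in DMSO.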

How the data were processed

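Polyadenylated RNA of 36 libraries was sequenced with a SMARTer mRNA kit, per the labels' protocols. The deposited file holds raw counts per gene, which the authors made from reads aligned to mm10; the submitters' processing notes name HISAT2 2.1.0 and featureCounts 2.0.1, besides FastQC 0.11.7 and DESeq2. The sources used here give no annotation release or strand setting. Gene IDs matched GENCODE M21 for 54587 genes (98.6%) and for all 78 members.

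Library totals were 6621288 to 16497799 counts. Genes with enough counts (edgeR's filterByExpr, minimum count 10, minimum total 15) were scaled with TMM and fitted as 12 groups over 36 libraries with edgeR 4.0.16 (quasi-likelihood test, R 4.3.3), with Benjamini-Hochberg adjustment over 17394 genes; the common biological coefficient of variation was 3.86%. The joint tests used the 3 treatment by day interaction terms. The scripts were tested on simulated data. Alternatives were other scalings, a filter of at least 1 CPM in 3 libraries or none, removal of a trend on length and GC content, DESeq2 1.42.0, the compared libraries alone, a replicate block and leaving out each library.

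The members and gene lists were chosen with earlier results of these data known. Genes to name were the 4 highest and 4 lowest called changes per comparison (no overlap between groups, at least 5 CPM in 1 group), members called in 1 direction at all 4 days, the 5 smallest p per joint test, the extremes of level per kilobase, Mrps18a, Mrps18b, Mrps18c, Mrps36, Mrps30, Mrpl12, Mrpl58 and Mrpl23, and up to 4 genes of each further list. Not all of these are described. Mrps14 and further values of named members were added after they were seen. Promoter sequences are from RefSeq, build GRCm38.p6.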

Additional observations from a re-analysis of the deposited data

Results flagged for a closer look

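The effect of a treatment differed between days by the direct test of the interaction terms (edgeR's quasi-likelihood test, Benjamini-Hochberg adjusted over all genes). This held for 48 of the 78 members in BPK25 (61.5%), against 47.1% of all genes tested, and for 57 in IAA (73.1%), against 70.1% of all genes, a share close to that background.

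In BPK25 the smallest adjusted p were those of Mrpl57 (6.61e-15), Mrpl41 (5.53e-13), Mrps15 (2.84e-11), Mrpl33 (1.11e-09) and Mrpl52 (9.92e-09). Mrpl57 changed by 0.23, 0.24, -1.43 and -0.56 at days 0, 2, 4 and 6, Mrpl41 by -0.25, -0.21, -1.0 and 0.03, and Mrpl52 by 0.22, -0.06, -1.04 and -0.28. Mrps15 and Mrpl33 moved in both directions.

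In IAA the smallest adjusted p were those of Mrpl20 (2.59e-11), Mrps10 (3.03e-10), Mrps15 (6.91e-10), Mrps5 (1.24e-09) and Mrpl24 (1.19e-08). Mrpl20 changed by -0.13, 0.01, 0.20 and -0.81 at days 0, 2, 4 and 6, and Mrps10 by -0.32, -0.36, -0.09 and 0.47.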

How the results depend on the processing

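Of the called changes of named genes refitted under the alternatives, none changed sign, but the call was lost in 87 refits, those without a library included. Among the 9 settings that kept all replicates, Mrps6 in BPK25 at day 0 and Mrpl14 in BPK25 at day 6 kept their call in 5. Mrpl22 and Mrpl27 in BPK25 at day 0, Mrpl57 in BPK25 at day 2 and Mrpl14 in IAA at day 0 kept it in 7. Of the member medians, those of BPK25 against IAA at day 4 (-0.0090 with no filter to 0.044 with upper quartile scaling) and of BPK25 against DMSO at day 2 (-0.021 to 0.017) took both signs and give no direction. Other medians kept their sign but shifted with the setting, from -0.21 to -0.12 in IAA against DMSO at day 0 and from -0.40 to -0.28 in DMSO at day 6 against day 0. Counts that moved by more than 1.5 times were those of members called higher, and of members lower in BPK25 at days 0 and 6. With the length and GC trend removed, 2 members were higher in BPK25 at day 2, 8 in BPK25 at day 4 and 6 in IAA at day 4. With library totals in place of TMM, 4 were higher in IAA at day 0, 6 in DMSO at day 2 and 8 in DMSO at day 6; with no filter 5 were higher in DMSO at day 2. In BPK25 at day 6, 2 were higher with upper quartile scaling and 5 lower with DESeq2. The cause was not tested. Library totals moved the median of all genes to 0.12 in DMSO at day 6, with a member median of -0.28.

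Leaving out each library in turn gave 3 to 6 members lower and 2 to 4 higher in BPK25 at day 0, 2 to 6 higher at day 2, 3 to 5 higher at day 4, and 3 to 8 lower and 1 to 3 higher at day 6. It gave 3 to 7 higher in IAA at day 0, and 1 to 5, 1 to 2 and 3 to 5 higher in DMSO at days 2, 4 and 6. A replicate block gave 42 members lower in BPK25 at day 4 and 55 in IAA at day 2, and moved no count by more than 1.5 times. The 36 correlations of deviations between libraries with the same replicate number lay between -0.0442 and 0.0497. These low values showed no pairing by replicate number. They cannot establish that there was none, since the labels do not say how the replicates were made. Members with few counts, such as Mrpl14, are limited by depth.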
